A study of Homo sapiens with 2 samples.

Results

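Fanconi anaemia (FA) and homologous recombination genes were examined in the human colorectal carcinoma line DLD-1, with an inducible wild-type p53 switched off or on. The set held 31 genes, named for their function and chosen with earlier results of these data known. A probe set is the group of short oligonucleotides that reports 1 transcript. A probe set named to the gene alone was found for 27 of the 31, which are among 19775 such genes in all, and all 27 reached the floor of signal set below on at least 1 array. FANCA, FANCD2, BRCA2 and RBBP8 had no named probe set and were not analysed here.

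The cells of both conditions carried wild-type p53 under a stably transfected tet-off system, which stays silent as long as tetracycline is present. Tetracycline was kept on the p53 off cells and withdrawn from the p53 on cells for 9 h. Their total RNA went onto 1 oligonucleotide array per condition, so n = 1. No difference below has a replicate check, no p-value or standard error was computed, and the labels do not say how many clones were used. The wild-type p53 adds to the line's own mutant p53, and the gene that encodes both is not reported here. CDKN1A, the p21 gene and a standard p53 target, went from 2723 (p53 off) to 23349 (p53 on), in the direction of the labels.

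The FA pathway repairs DNA crosslinks that block replication forks. A nuclear core complex ubiquitinates the FANCD2 and FANCI clamp, nucleases then unhook the crosslink, and homologous recombination restores the broken strand. In recombination, DNA ends are resected to single strands, BRCA1, PALB2 and BRCA2 load the recombinase, RAD54 motors and BLM process the joint molecules, and MUS81 or SLX4 nucleases resolve them. Because a sister chromatid is the template, many of these genes are expressed mainly in S and G2 phase. Wild-type p53 is known to lower many cell cycle genes through p21 and the DREAM complex.

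The values are MAS5 signals, linear intensities that the authors deposited, with the same trimmed mean on both arrays. Signals under a floor of 112.4, the median of all signals, were set to that floor. For each gene the probe set brightest on average stands for the gene, and log2 ratios divide p53 on by p53 off, so a gene lower with p53 on is negative. Across the 13915 genes with at least 1 signal at or above the floor, called measured genes, the median log2 ratio was 0.0035. Signals of different genes come from different probes and were not compared with each other.

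Most FA and homologous recombination genes had lower signals with p53 on. Of the 27 measured genes, 17 were at least 1.5-fold lower, against 25.9% of all measured genes. At least 1.5-fold higher was 1 gene, MRE11, against 25.9% of all measured genes, and 9 lay between. At the 2-fold threshold 12 were lower, against 13.5% of all measured genes, and 0 were higher, against 15.3%. Of the 27 ratios, 24 were below 0, against 49.8% of all measured genes. All but SLX4 had both signals at or above the floor, and of all genes with both signals there 29.6% were at least 1.5-fold lower. The median log2 ratio of the 27 was -0.86, with a middle 50% from -1.43 to -0.40, while the middle 50% of all measured genes ran from -0.61 to 0.61. In RNA from a whole culture, fewer cells that express a gene and less RNA per cell cannot be told apart.

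**Figure D1:**
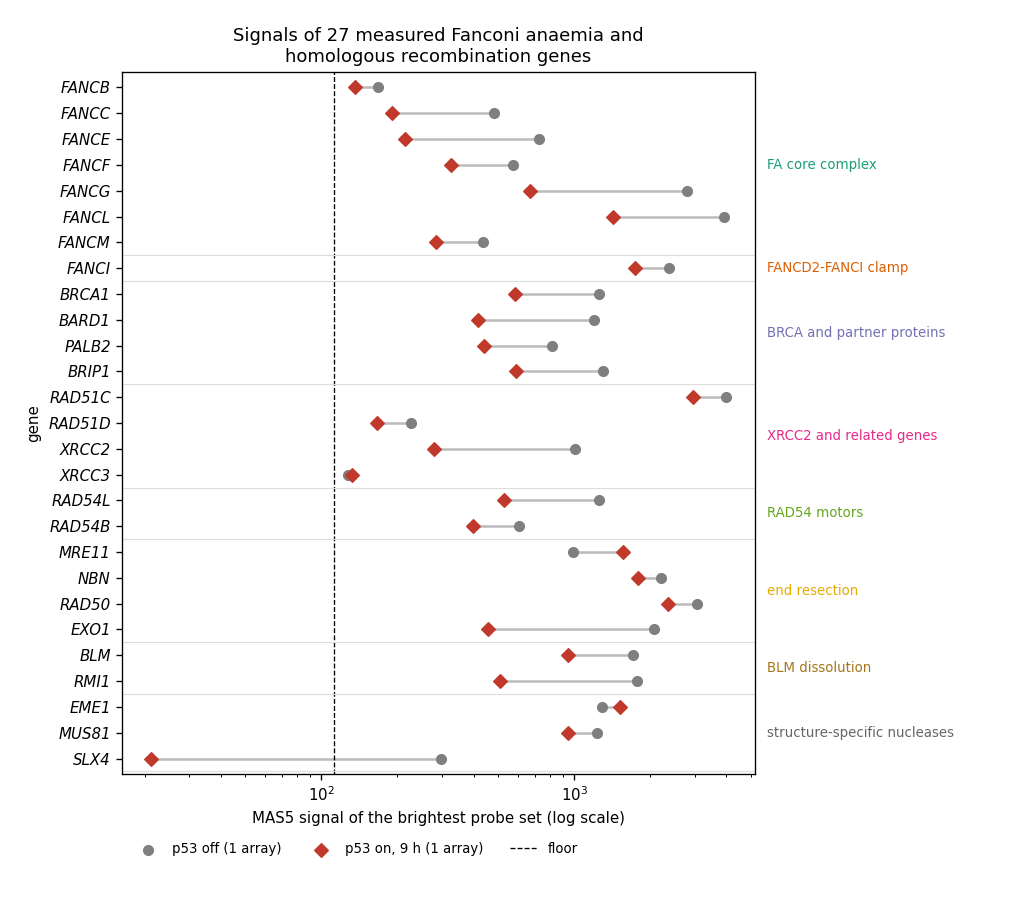
MAS5 signal (log axis) of the brightest probe set of each of the 27 measured genes, with p53 off (grey circles) and p53 on for 9 h (red diamonds), 1 array each. Genes are grouped by role, and the dashed line is the floor of 112.4. The red diamond lies left of the grey circle for 24 genes, and to the right for MRE11, EME1 and XRCC3.

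Control probe sets differed between the arrays and stand beside every ratio here. The beta-actin signal at the 3' end was 1.37 times that at the 5' end with p53 off and 7.29 times with p53 on, and for GAPDH the ratios were 0.97 and 1.77. The 18 hybridization spike-ins were brighter on the p53 on array by a median of 1.89 times. Their part in the lower signals was not tested. If spike-ins set the scale instead, the median of all measured genes moved to -0.80 and that of the 27 genes to -1.78. Directions and fold calls here are relative to 0, which is close to the median gene (0.0035) as reported but not with spike-in scaling. Under that scaling MRE11 was at -0.27, below 0 but still above the median gene.

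Markers of the labelled tissue were present on both arrays. Of 15 colon epithelial markers, 11 were above the floor with p53 off and 12 with p53 on, among them EPCAM at 20250 and 35534 and KRT8 at 21998 and 29300. KRT20, CDX1 and GPA33, of differentiated colon, were under the floor on both. Leukocyte and stroma markers had 11 genes with a probe set and no signal above 224.3. The p53 off array had 2 of these 11 above the floor, and the p53 on array had 6. Of the 7 measured, 6 had a log2 ratio above 0. Among these 6, ITGAM went from 11.0 to 212.2, DCN from 14.2 to 193.0 and PECAM1 from 121.1 to 224.3. The 1 below 0 was COL1A2, at 141.5 and 107.5. The summed signal of the 11 went from 575.3 to 1533. PTPRC, CD3E, CD14 and COL1A1 were under the floor on both arrays. The part of these markers in the lower repair signals was not tested.

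Since most of the genes were lower together, their promoters were searched for sites of factors that are known to act on cell cycle genes. RefSeq windows (GRCh38.p14) from 250 bases before to 50 bases after each transcription start matched 28 of the 31 genes, counting genes without array values. FANCC, BRIP1 and XRCC2 are shown because they are the lower genes whose window held an E2F site (TTTCCCGC or TTTGGCGC) or a cell cycle genes homology region, the CHR (TTTGAA or TTCGAA), on either strand. Capitals mark these sites. For FANCC and BRIP1 the 250 bases before the start are given, both on the minus strand, at chr9:95317710-95317959 and chr17:61863529-61863778. For XRCC2 only 30 bases around its site are given, on the minus strand at chr7:152676102-152676131, because the site lies after the start.
FANCC: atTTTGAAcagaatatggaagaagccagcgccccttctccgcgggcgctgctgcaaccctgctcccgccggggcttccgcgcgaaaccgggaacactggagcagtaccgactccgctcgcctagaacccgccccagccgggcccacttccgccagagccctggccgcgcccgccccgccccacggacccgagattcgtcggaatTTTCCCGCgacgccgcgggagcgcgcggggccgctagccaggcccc
BRIP1: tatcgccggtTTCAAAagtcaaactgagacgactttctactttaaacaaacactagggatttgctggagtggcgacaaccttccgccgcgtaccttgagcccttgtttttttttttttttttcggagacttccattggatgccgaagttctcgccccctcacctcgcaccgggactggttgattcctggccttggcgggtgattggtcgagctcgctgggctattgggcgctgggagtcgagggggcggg
XRCC2: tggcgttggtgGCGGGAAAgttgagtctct

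The E2F site in the form TTTCCCGC was in 3 of the 28 genes (FANCC, XRCC2 and FANCD2) and in 1.98% of all 27305 genes with a window. The form TTTGGCGC was in 0 of the 28 and in 0.795% of all genes. TTTGAA was in 2 of the 28 (FANCC and BRIP1) and in 18.2% of all genes, and TTCGAA in 0 of the 28 and in 1.82%. CCAAT, the core of the NF-Y site, was in 12 of the 28 and in 39.7% of all genes. Of the 16 genes that were at least 1.5-fold lower and had a window, 8 held CCAAT, and of the 8 other measured genes 3 did. The p53 half-site consensus was in 1 of the 28, BLM, and in 8.06% of all genes. No searched motif contains another. A match is a run of letters and not a shown binding site. Most of the lower genes held neither an E2F site nor a CHR of these exact letters in the window.

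The FA core complex was the largest role group, and 6 of its 7 measured genes were at least 1.5-fold lower, against 25.9% of all measured genes. Its median log2 ratio was -1.34. FANCG, a scaffold that holds FANCA in the complex, went from 2786 (p53 off) to 666.9 (p53 on), 4.18-fold lower. Only 1.49% of all measured genes had a smaller ratio. FANCE, which contacts FANCD2, read 723.7 and 213.4 and was 3.39-fold lower. FANCL, the ubiquitin ligase of the complex, read 3906 and 1428 and was 2.73-fold lower. FANCG, FANCE and FANCL had 1 probe set each, so their ratios have no repeat reading.

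FANCC and FANCF form a module with FANCE. FANCC, whose promoter window above holds the letters of both a CHR and an E2F site, read 480.5 and 189.5, 2.54-fold lower on its brightest probe set. Its other measured probe set was dim, at 150.6 and 121.8, with a log2 ratio of -0.31. FANCF, an adaptor, read 570.5 and 325.4, 1.75-fold lower, and its other probe set gave nearly the same log2 ratio, -0.80 against -0.81. FANCM, the DNA translocase that anchors the complex to damaged DNA, read 437.9 and 283.1. It was 1.55-fold lower, just past the threshold, and its other measured probe sets were at -0.92 and, as a bound, -0.52. FANCB, a partner of FANCL, read 167.7 and 135.8, close to the floor, with a log2 ratio of -0.30. Its other probe sets were at 0.016 and, as bounds, at -0.42 and -0.68.

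FANCI, the measured subunit of the ubiquitinated clamp, was short of the 1.5-fold threshold. It went from 2365 (p53 off) to 1745 (p53 on), a log2 ratio of -0.44. Another probe set gave -0.32, and the dimmest went the other way, at 445.2 and 701.5 (0.66). The sign for FANCI thus depended on the probe set.

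All 4 measured genes of the BRCA group were at least 1.5-fold lower, against 25.9% of all measured genes, with a median of -1.12. BRCA1, a ubiquitin ligase that starts recombination at resected ends, read 1251 and 581.3 and was 2.15-fold lower. Its other probe set read 381.9 and 56.8, the latter under the floor, which makes it at least 3.40-fold lower. BARD1, the obligate partner of BRCA1, read 1200 and 415.0 and was 2.89-fold lower. Its other probe sets gave log2 ratios of -2.72 and -0.78, so all 3 were lower although their sizes differed. BRIP1, the helicase that binds BRCA1, read 1295 and 590.0, 2.19-fold lower, with a second probe set at -1.46. PALB2, the bridge between BRCA1 and BRCA2, read 819.5 and 438.9 and was 1.87-fold lower on its only probe set. In this group each probe set of each measured gene was at least 1.5-fold lower.

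RAD51C, RAD51D, XRCC2 and XRCC3, which help the recombinase to form filaments, differed among themselves. XRCC2 read 1006 and 278.6 and was 3.61-fold lower, with 2.39% of all measured genes at a smaller ratio. Its only probe set is marked _x_at, a mark for sequence shared with other transcripts. RAD51C read 3987 and 2961 on its brightest probe set (-0.43), but 1026 and 264.1 on the other (-1.96). RAD51D read 227.1 and 165.7 (-0.46), and XRCC3 lay just above the floor at 127.0 and 132.3 (0.059). Only XRCC2 passed 1.5-fold by the brightest probe set, and for RAD51C the choice of probe set decided the call.

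Both RAD54 motor genes, whose products drive strand exchange, were at least 1.5-fold lower, against 25.9% of all measured genes. RAD54L read 1252 and 529.1, 2.37-fold lower. RAD54B read 605.5 and 397.9, 1.52-fold lower and just past the threshold. A further pair of probe sets, named to both RAD54B and FSBP and so not used, read 270.9 and 163.7, and 130.0 and 43.6.

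Among the end resection genes, EXO1 was lower and MRE11 was higher. EXO1, which resects long tracts, had the smallest ratio of the 27 genes, of which SLX4, below, gave only a bound. It went from 2062 (p53 off) to 457.0 (p53 on), 4.51-fold lower on its only probe set, and 1.09% of all measured genes had a smaller ratio. MRE11, the nuclease that starts resection, read 993.8 and 1558 and was 1.57-fold higher. Its other measured probe set, at 167.6 and 245.4, was also higher (0.55).

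The partners of MRE11 gave mixed readings. RAD50, the ATPase of the complex, read 3049 and 2344 (-0.38), but its dimmer probe sets read 252.1 and 481.8 (0.93) and 118.5 and 132.8 (0.16). NBN, which links the complex to the ATM kinase, read 2196 and 1785 (-0.30). Its other measured probe sets were all below 0, between -1.59 and -0.45, and the lowest of them read 2230 and 739.8. The sign for RAD50 and the size for NBN therefore depended on the probe set, and MRE11 was the only gene of the 3 with every measured probe set above 0.

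BLM and RMI1, which undo double Holliday junctions without a crossover, were both lower. RMI1, the stabilising subunit, read 1777 and 510.9 and was 3.48-fold lower. BLM, the helicase, read 1716 and 944.3 and was 1.82-fold lower. Each had 1 probe set.

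Among the structure-specific nucleases, only SLX4 passed 1.5-fold. SLX4, the scaffold that gathers nucleases, went from 297.2 (p53 off) to 21.2 (p53 on), under the floor, and was at least 2.64-fold lower. MUS81, the catalytic subunit, read 1232 and 947.1 (-0.38). EME1, its partner, read 1288 and 1523 (0.24) on the brightest probe set and 609.0 and 339.3 (-0.84) on the other. The sign for EME1 is thus unsettled.

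**Figure D2:**
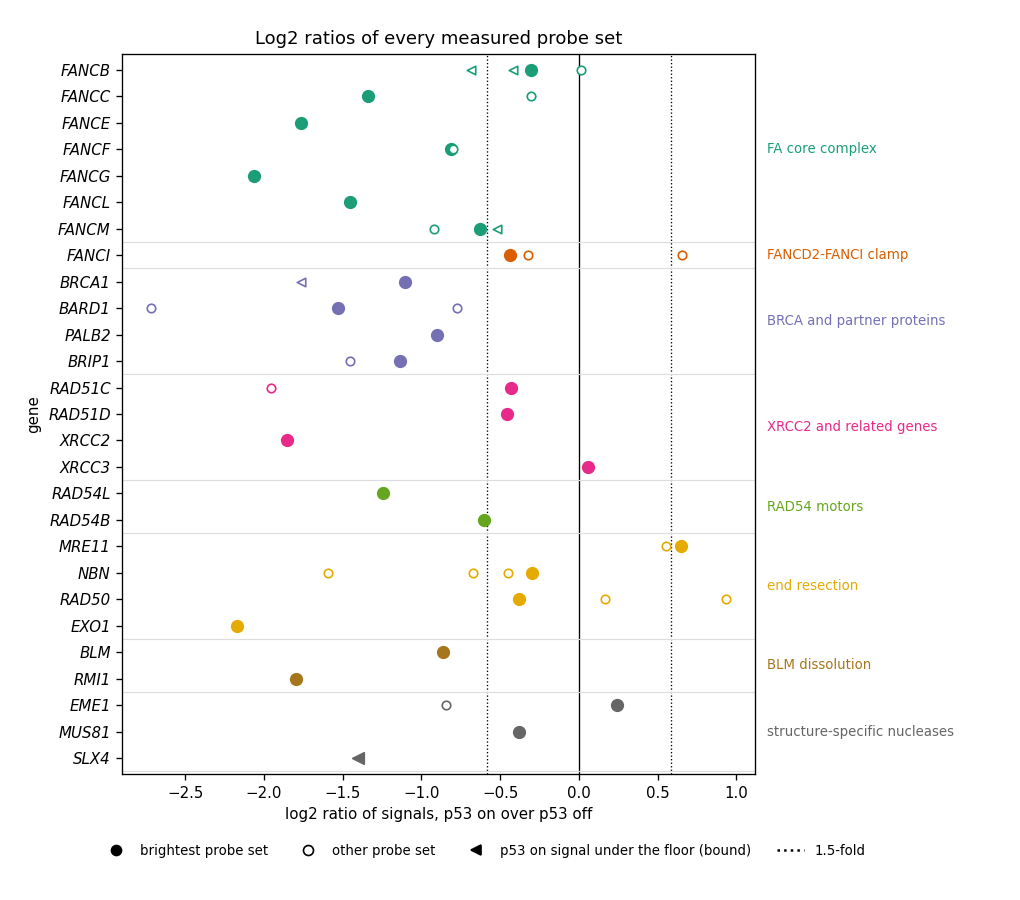
Log2 ratio of signals, p53 on over p53 off, for each of the 48 measured probe sets of the 27 genes. Filled symbols are the brightest probe set, open symbols the others, triangles mark bounds, and dotted lines mark 1.5-fold. Of the 48 probe sets 40 lie below 0, with no share over all measured probe sets to set beside it. FANCB, FANCI, RAD50 and EME1 have probe sets on both sides of 0.

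Repeat readings came only from several probe sets of 1 gene. Of the 27 genes, 13 had more than 1 measured probe set. In 8 of these all were below 0, in 1 (MRE11) all were above 0 and in 4 they had both signs. Of the 17 lower genes, 11 rested on 1 probe set. In the other 6 all measured probe sets were below 0, and in 4 (FANCF, BRCA1, BARD1 and BRIP1) all were at least 1.5-fold lower. These counts stand without a share over all genes with several probe sets, so whether they are unusual is not known. Over all genes, the median log2 difference between the brightest probe set and the others was 0.56. Differences between members of less than that, such as -0.86 for BLM against -0.90 for PALB2, lie within the spread between probe sets of 1 gene. The 1.5-fold threshold is a log2 ratio of 0.585, close to that spread, so a call near it on 1 probe set is uncertain.

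A further list of 62 genes of the same pathways, none of them among the 31, had 57 measured genes. Of these 30 were at least 1.5-fold lower and 5 higher, each against 25.9% of all measured genes. The median log2 ratio was -0.62. UBE2T, the ubiquitin-conjugating enzyme that works with FANCL, had the smallest ratio among genes with both signals above the floor. It read 3874 and 364.1 and was 10.6-fold lower. DNA2, a resection nuclease beside EXO1, read 876.1 and 156.0, 5.61-fold lower. RPA2, a subunit of the protein that coats resected DNA, read 2570 and 656.6, 3.91-fold lower. TONSL, which acts at stalled forks, read 525.5 and 27.1, under the floor, so at least 4.68-fold lower on its brightest probe set, though another was at -0.017. ZGRF1, a helicase, and FIRRM, which binds FIGNL1, were 3.25-fold and 3.14-fold lower, and 1 other probe set of ZGRF1 was at 0.48.

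The highest ratios of that list included another partner of MUS81. EME2, which pairs with MUS81 in place of EME1, read 962.3 and 4573 and was 4.75-fold higher, with its other probe sets at 1.12 and 2.17. MCM9, a helicase of recombination, read 278.1 and 882.6, 3.17-fold higher. POLN, a DNA polymerase, read 197.9 and 567.6, 2.87-fold higher. BRCC3, a deubiquitinase found with BRCA1, was 2.55-fold higher and ABRAXAS1, the scaffold of the same complex, 1.61-fold. The other measured probe sets of these 4 genes were also above 0, but with smaller log2 ratios. They were 0.46 for MCM9, 0.85 for POLN, 0.41 for ABRAXAS1 and from 0.11 to 0.81 for BRCC3. USP1, which removes ubiquitin from the FANCD2 and FANCI clamp, read 7973 and 11883 (0.58), with another probe set at -0.22.

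Genes of end joining, the repair route that needs no sister chromatid, lay closer to the median gene. Of 17 measured genes 4 were at least 1.5-fold lower, or 23.5%, near the 25.9% of all measured genes, and 0 were higher, against 25.9%. Their median was -0.33. Still, 14 of the 17 were below 0, against 49.8% of all measured genes. By the second brightest probe set, or the only one where a gene had no second, 6 of 17 were at least 1.5-fold lower. The share of all measured genes was then 26%. PAXX and XRCC1 were among the 6 through their only measured probe set. XRCC5 and XRCC6, which encode the Ku subunits, had log2 ratios of -0.11 and -0.16, although a second XRCC5 probe set was at -1.19. The lowest ratios were those of DCLRE1B, a nuclease, at least 4.36-fold lower, PAXX, a Ku-binding factor, 2.47-fold, and XRCC1, a scaffold of strand break repair, 2.45-fold. The highest were RIF1 (0.57) and the end-processing factors APLF (0.49, a bound) and APTX (0.35). RIF1, an antagonist of resection, had other probe sets from -0.82 to 1.20.

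Cell cycle genes had lower medians. Of 50 measured G1/S and replication genes 35 were at least 1.5-fold lower and 2 higher, with a median of -1.12. Of all measured genes 25.9% were lower and 25.9% higher. Of 45 G2 and mitosis genes 41 were lower and 2 higher, against the same shares, with a median of -1.94. The median of the 27 FA and recombination genes, -0.86, thus lay between those of end joining and of replication genes. Its distance from replication genes was small by the mean of measured probe sets, -0.86 against -0.96. Of the replication genes 43 of 50 were below 0, and of the 27 genes 24 were. With 1 array per condition, these differences between lists have no test.

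**Figure D3:**
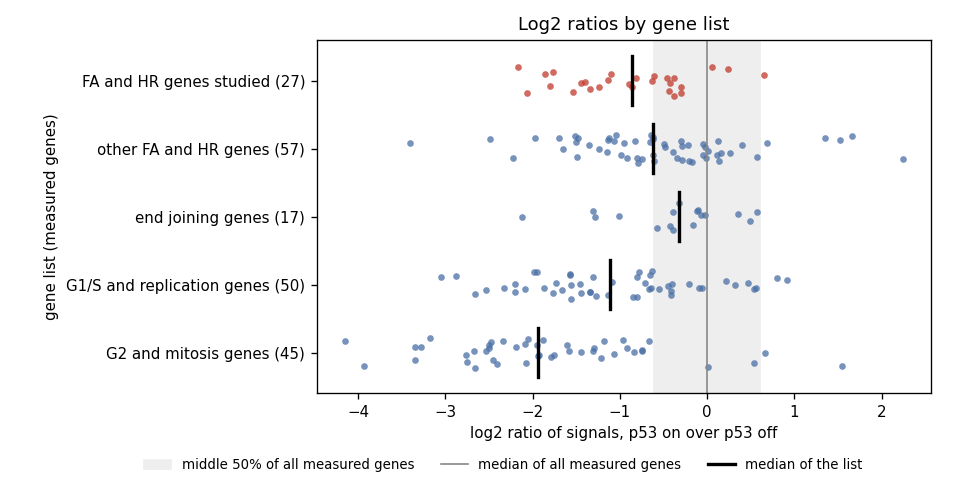
Log2 ratio of signals, p53 on over p53 off, for each measured gene (points) of 5 lists, with the number of genes in brackets and the list's median as a black bar. FA stands for Fanconi anaemia and HR for homologous recombination. The grey band is the middle 50% of all measured genes, and the median of the studied genes, -0.86, lies left of it.

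The direction for the list held under other processing. Across the 11 other settings, 14 to 26 genes were at least 1.5-fold lower and 0 or 1 was higher. The count of 14 is of the 20 genes that kept a measured probe set once those marked _x_at or _s_at were left out, and 26 is with spike-in scaling. The share of all measured genes at least 1.5-fold lower was 58.7% with spike-in scaling and 22.5 to 29.8% in the other 10 settings. For genes at least 1.5-fold higher these shares were 9.55% and 22.6 to 32.2%. Of the 17 lower genes, 14 stayed past 1.5-fold in every setting that measured them, leaving aside the spike-in scaling. However, 11 of the 17 had 1 measured probe set. For these the mean and the second brightest settings repeat the reported value and could not change it. Centring moved every ratio by only 0.0035. The exceptions were FANCC, FANCM and RAD54B, whose highest log2 ratios were -0.31, -0.48 and -0.43. All 17 stayed below 0 in those settings.

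**Figure D4:**
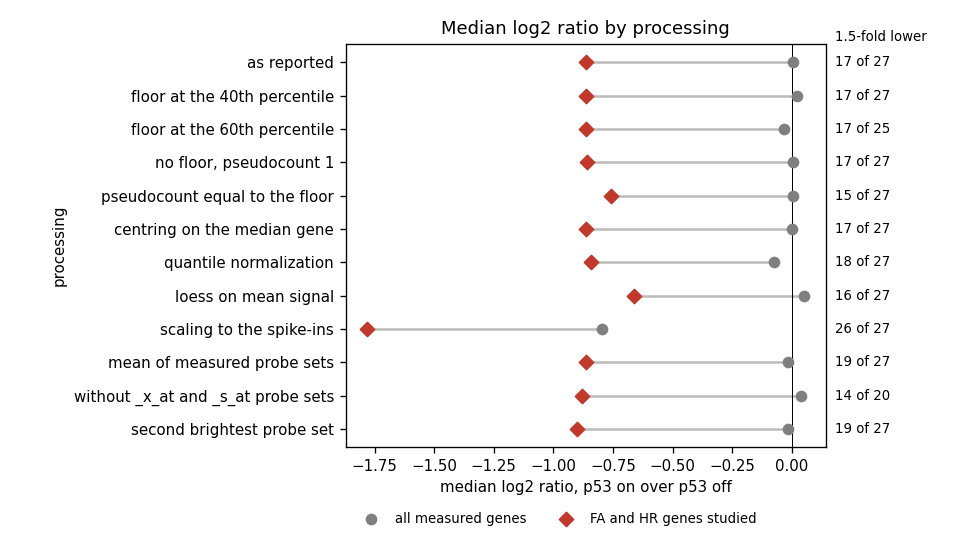
Median log2 ratio, p53 on over p53 off, of all measured genes (grey circles) and of the FA and recombination genes (red diamonds) under the reported processing and 11 alternatives. The numbers at the right count genes at least 1.5-fold lower among those measured. Scaling to the spike-ins moves both medians, to -0.80 and -1.78, and the red diamond lies left of the grey circle in each row.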

How the data were processed

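RNA of 2 DLD-1 cultures, p53 off and p53 on, was measured on 1 array each. The authors deposited linear signal intensities; per the submitters' processing notes the tool was MAS5. Its version and settings were not given in the sources used here. With 2% trimmed from each end, mean signal was 500.1 on both arrays. An array has no read depth, and the number of arrays limits the precision.

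Of 54613 probe sets other than controls, 41091 carried 1 gene symbol in GEO's platform annotation, 1801 several and 11721 were unnamed here. Symbols were updated to RefSeq names through Entrez identifiers, of which 41037 were found. Only probe sets with 1 symbol were used. The floor (50th percentile), the thresholds of 1.5-fold and 2-fold and the choice of probe set are as described above. With 1 array per condition no test was run.

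The genes, the lists and the alternatives were chosen with earlier results of these data known. The text names each of the 31 genes, the 6 lowest and 6 highest of the further pathway list, and the 3 lowest and 3 highest of end joining; XRCC5, XRCC6 and the genes under other observations were chosen after their values were seen. Alternatives were a floor at the 40th or the 60th percentile, a pseudocount of 1 or of the floor, centring, quantile normalization, loess (span 0.3), spike-in scaling, and 3 other choices of probe set. Genes with only 1 measured probe set kept it where the mean or the second brightest was taken. The ratio code was run on simulated signals with known changes and little noise, which checks its arithmetic and not the precision of these ratios. Python 3.11.15, numpy 2.4.6, pandas 2.3.3, statsmodels 0.14.6 and matplotlib 3.10.9 were used.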

Additional observations from a re-analysis of the deposited data

Results flagged for a closer look

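Some control probe sets read differently on the p53 on array than on the p53 off array, and the gene ratios as reported do not use them. The spike-ins enter only the alternative scaling described under processing. The ratio of 3' to 5' signal was 7.29 against 1.37 for beta-actin and 1.77 against 0.97 for GAPDH. Hybridization spike-ins were 1.89 times brighter with p53 on (range 1.47 to 2.59 over 18 probe sets). Their part in the lower signals of the repair genes was not tested.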

How the results depend on the processing

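Each condition has 1 array, so culture, array and p53 cannot be told apart. No paired analysis was possible because each group holds 1 array.

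Scaling to the spike-ins moved most values. Of the 27 studied genes 26 were then at least 1.5-fold lower, against 58.7% of all measured genes, and 0 higher, against 9.55%, with a median of -1.78, and MRE11 turned to -0.27, above the median gene's -0.80. Under that scaling 51 of the further pathway genes were lower and 3 higher (median -1.47), 14 end joining genes were lower (median -1.25), 0 replication genes were higher (median -2.11), and 1 mitosis gene was higher (median -2.86). In the other 10 settings 22.5 to 29.8% of all measured genes were at least 1.5-fold lower and 22.6 to 32.2% higher. Loess gave medians of -0.66 for the studied genes, -0.39 for the further pathway genes, -0.98 for replication and -1.71 for mitosis. With loess 2 end joining genes were higher. A pseudocount equal to the floor gave medians of -0.45, -1.0 and -1.78 for the further pathway, replication and mitosis genes. The mean of measured probe sets gave medians of -0.41 for the further pathway genes and -0.96 for replication, with 1 replication gene higher. Without _x_at and _s_at probe sets fewer genes were measured. The further pathway genes then had 3 of 41 higher (median -0.75), and replication had 1 of 36 higher. Mitosis had 26 of 32 lower and 0 higher (median -1.77). With the second brightest probe set 3 further pathway genes and 1 end joining gene were higher. After quantile normalization 1 end joining, 1 replication and 1 mitosis gene were higher. With the floor at the 40th percentile, or a pseudocount of 1, 1 end joining gene was higher. The cause of these shifts was not tested. FANCM and RAD54B are the lower genes nearest the threshold, FANCC lost the call where its other probe set was used, and signals near the floor (FANCB, XRCC3) limit their ratios.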

Other observations

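Complexes around the studied genes showed unequal ratios among their own subunits, chosen for mention after their values were seen. In the BRCA1-A complex, which reads ubiquitin at breaks, BRCC3 and ABRAXAS1 were higher (log2 ratios 1.35 and 0.69). BABAM1 and UIMC1 were lower (-0.63 and -0.99). BABAM2 was at -0.026, with other probe sets at 0.30 and 0.44, so its sign depended on the probe set. In replication protein A, RPA2 was at -1.97 while RPA1 was at 0.14 and RPA3 at -0.39. Another RPA1 probe set was at -0.85. Accessory subunits of the FA core complex ran from CENPX at -1.51 and FAAP24 at -0.61 to FAAP100 at -0.047 and FAAP20 at 0.16. Another FAAP100 probe set was at -0.385, and those of FAAP20 ran from -0.65 to 0.016.

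Among checkpoint kinases that act on these proteins, CHEK1 (1771 with p53 off, then 936.2) and CHEK2 (676.4, then 386.4) were 1.89-fold and 1.75-fold lower. All other CHEK1 probe sets were lower too, from -1.68 to -0.88. The brightest ATM probe set was 2.21-fold lower, with others from -0.54 to 0.50. ATR was at 0.39, with another probe set at 0.031. FIGNL1 and SFR1, which act in recombination, were at -1.13 and -1.05, with their other probe sets at -2.26 and -1.72. None of these ratios has a replicate check.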
